A study of Mus musculus with 6 samples.

Results

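The 8 genes described here encode the enzymes of lower glycolysis, which carry triose phosphate to pyruvate: Tpi1, Gapdh, Pgk1, Pgam1, the enolases Eno1, Eno2 and Eno3, and Pkm. They were chosen by symbol and make up 8 of the 50686 gene identifiers in the count tables. All 8 were found there and all 8 passed the filter on low counts, which left 16729 genes for testing. The cells were mouse induced pluripotent stem cells (iPSCs), reprogrammed from gingival fibroblasts and grown as embryoid bodies with retinoic acid. They were attached to gelatin-coated dishes in medium with serum, and the 24 h of force treatment was without serum. The constructs of 1 group received intermittent compressive force (ICF) of 1.5 g per square centimetre at 0.23 Hz, and those of the other stayed unloaded. RNA was sequenced at 24 h from 3 control and 3 ICF-treated samples, labelled donor 1 to 3 in each group and called replicates here. The study's methods give the number of independent RNA sequencing experiments as 3, while the sample labels do not say which samples shared an experiment.

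Glycolysis splits glucose into 2 triose phosphates and oxidises them to pyruvate. Tpi1 interconverts the triose phosphates, Gapdh oxidises glyceraldehyde 3-phosphate with NAD+, Pgk1 and Pkm make ATP from the phosphorylated intermediates, Pgam1 moves the phosphate group, and the enolases remove water to form phosphoenolpyruvate. Pluripotent stem cells are known for relying strongly on this pathway. Several of these genes have many processed pseudogenes, which are copies of the mRNA inserted elsewhere in the genome.

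Between 28711166 and 34194413 reads per sample were assigned to genes. ICF replicate 3 stood apart, because 89.0% of its counts above 0 were multiples of 4, where the other 5 had 20.3 to 21.5%, and because 20802 genes had a count, against 24340 to 24889. The counts of Gapdh, Pgk1, Eno2 and Eno3 in that library, 664, 8400, 184 and 420, were also multiples of 4. All 10 pluripotency markers passed the filter. Pou5f1, which encodes the transcription factor Oct4, stood at 841 ± 57.2 CPM (SD, n = 3) without load and 817 ± 70.4 CPM (SD, n = 3) under ICF. Levels are given as CPM, counts scaled to a library of 1e6 reads after TMM normalization. The bulk RNA of whole constructs cannot tell fewer cells of a type from less RNA per cell.

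With ICF, 5 of the 8 genes were downregulated: Tpi1, Pgk1, Pgam1, Eno1 and Pkm. Their levels with ICF were 35.6 to 58.9% of the control. None was upregulated, also at an unadjusted p under 0.05 or by DESeq2, and Gapdh, Eno2 and Eno3 did not pass the threshold of an adjusted p under 0.05 (edgeR's quasi-likelihood test with Benjamini-Hochberg adjustment over all tested genes). Of all tested genes, 4.38% were called lower and 3.47% higher. The median log2 fold change was -0.77 over the 8 genes and 0.0026 over all tested genes. In 6 of the 8 genes, every ICF sample was lower than every control sample, as was the case for 15.7% of all tested genes. Together the 8 genes held 0.629 to 0.769% of the reads on genes in the control and 0.376 to 0.395% with ICF. Without replicate 3 of both groups, 6 of the 8 genes were called lower, as were 15.6% of all genes then tested. DESeq2 also called 6 of them lower, adding Eno2, and called 7.5% of its tested genes lower and 6.38% higher.

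**Figure D1:**
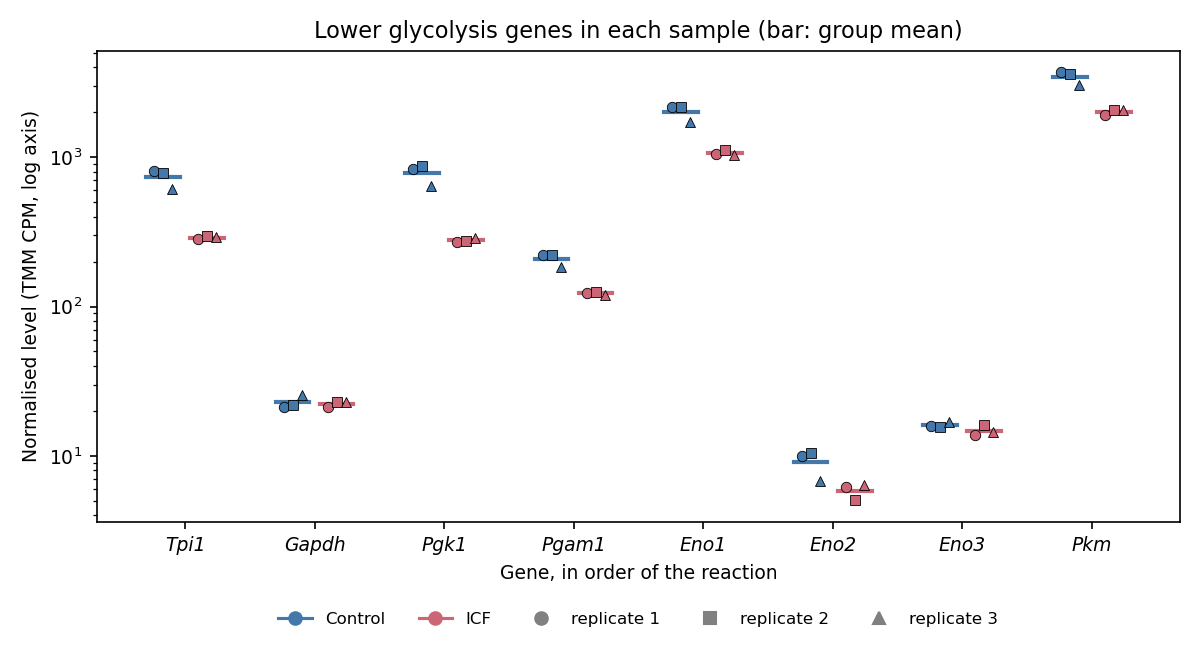
Normalised level (TMM CPM, log axis) of the 8 lower glycolysis genes in each of the 3 control (blue) and 3 ICF-treated (red) samples, with a bar at each group mean. The groups part for 6 genes, from Tpi1 with 617 to 814 against 284 to 295 CPM to Eno2 with 6.78 to 10.5 against 5.02 to 6.35 CPM, and mix for Gapdh and Eno3.

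Tpi1, triosephosphate isomerase, lies on the reverse strand of chromosome 6 from 124810586 to 124814296 (GRCm38). Its level was 814.5, 787 and 617.5 CPM in control replicates 1 to 3 and 284, 295 and 292 CPM in ICF replicates 1 to 3. The ICF samples lay close together, and even the lowest control sample, replicate 3, was far above them. Tpi1 had a log2 fold change of -1.35 (SE 0.13, adjusted p = 0.00036 from edgeR). Only 0.819% of the tested genes had a lower log2 fold change. Of the 75-base stretches of its transcript, each a possible read, 2.48% were also found in transcripts of another gene.

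Gapdh, glyceraldehyde-3-phosphate dehydrogenase, lies on the reverse strand of chromosome 6 from 125161715 to 125166467 and was the reference gene of the real-time PCR in the study. It was counted at 619, 684 and 732 reads in control replicates 1 to 3 and at 738, 753 and 664 reads with ICF. This gave 21.2, 21.9 and 25.5 CPM in the control and 21.2, 22.8 and 22.9 CPM with ICF, so the groups overlapped. The resulting log2 fold change was -0.03 (SE 0.09, adjusted p = 0.86 from edgeR), and 43.9% of the tested genes had a lower one. Its sign was not stable, since it was 0.05 without control replicate 3, 0.0068 without ICF replicate 1 and 0.03 without replicate 3 of both groups.

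The Gapdh counts were low beside those of its neighbours in the pathway, and its sequence was the most widely shared of the 8. Reads that align to more than 1 place are left out of such counts, and 80.3% of the 75-base stretches of the Gapdh transcript were also found in other annotated genes. In all, 121 genes held at least 1 of its stretches and 54 held at least 100, while Pgk1 shared stretches with 4 genes and Eno2 and Eno3 with none. The stretch found in the most genes, 49 besides Gapdh, is shown because a read from it cannot be placed. It lies in exon 4 of 7, wholly within the coding sequence, at chr6:125162873-125162947 of GRCm38 on the reverse strand, and is printed 5′ to 3′ as in the GENCODE transcript.
Gapdh shared stretch: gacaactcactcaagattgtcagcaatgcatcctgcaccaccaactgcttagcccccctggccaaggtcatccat

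The Gapdh primers of the study are shown because they fall in the shared sequence too. The forward primer matches exon 3 at chr6:125163289-125163306 and the reverse primer matches exon 4 at chr6:125163001-125163018, both in the coding sequence. Exact matches to the forward primer were found in transcripts of 77 other genes, and to the reverse primer in 72.
Gapdh forward: ggcaaattcaacggcaca
Gapdh reverse: cggagatgatgacccttt

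The primers span 208 bases of the transcript, and all 134 of the 75-base stretches in that product were also present in other genes. Both primer sites occurred in 42 other genes, of which 32 gave a product of the same length and 15 the identical sequence. Whether such copies were amplified was not tested.

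In the whole Gapdh gene, 867 stretches were both particular to it and part of a coding transcript. A further 2843 were particular to it but occurred only in noncoding transcripts, mainly a retained-intron form. A unique read counted for Gapdh can therefore come from either kind of sequence, and the table does not separate them.

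Of the 54 genes with at least 100 Gapdh stretches, 53 were in the count tables and 50 of these were pseudogenes. Their summed counts were 1237, 1336 and 912 reads in control replicates 1 to 3 and 1045, 978 and 716 in ICF replicates 1 to 3, more than those of Gapdh itself. In CPM the sums were 42.3, 42.7 and 31.7 without load and 30.1, 29.6 and 24.7 under ICF. Every ICF sample was lower than every control sample, as was the case for 15.7% of all tested genes. The difference was -0.46 on the log2 scale (SE 0.17, p = 0.1 by an exact permutation test, two-sided, which cannot go lower with 3 samples a group). Among these copies, 29 passed the filter and 25 of the 29 had a log2 fold change below 0. The share of all tested genes below 0 was not computed, but their median log2 fold change was 0.0026. None of the 29 was called by edgeR, whereas 1 was called lower by DESeq2, 5 with the replicate block and 5 at an unadjusted p under 0.05. In the block fit 15.3% of all tested genes were called lower, a share close to that of the copies. Without the block, 4277 of all 16729 tested genes had an unadjusted p under 0.05 in either direction (edgeR).

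Adding the copies to Gapdh gave 63.5, 64.5 and 57.2 CPM in the control and 51.3, 52.4 and 47.6 CPM with ICF, which no longer overlapped. Of all tested genes, 15.7% did not overlap in this direction. Gapdh alone differed by -0.03 on the log2 scale and the copies alone by -0.46. Whether reads counted on the copies came from Gapdh was not tested, so the sum is not a corrected level of Gapdh. The log2 fold change of this sum was -0.29, with an adjusted p of 0.046 from edgeR, just past the threshold, and 4.39% of all genes were called lower in that fit. The replicate block left it at -0.29 (adjusted p = 0.00022), and leaving out replicate 3 of both groups gave -0.30 (adjusted p = 0.00036, edgeR). These combined settings were chosen after the data had been seen. The sum of the other members with their copies moved no other gene across the threshold.

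**Figure D2:**
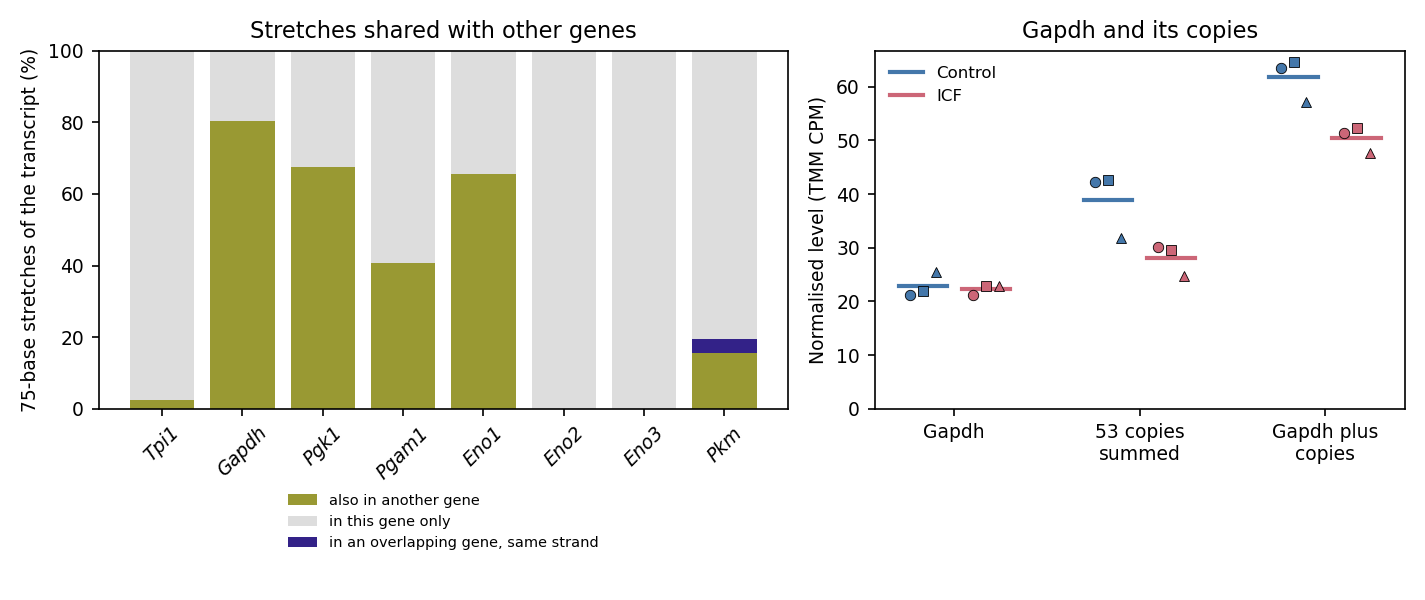
Left, share (%) of the 75-base stretches of each gene's transcript that also occur in another gene, in an overlapping gene on the same strand, or in that gene only, from 0% in other genes for Eno2 and Eno3 to 80.3% for Gapdh. Right, TMM CPM in each control (blue) and ICF-treated (red) sample (circle, square and triangle for replicates 1, 2 and 3, bar for the mean) for Gapdh, which overlaps between groups, for its 53 copies summed, and for both together, which do not.

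Pgk1, phosphoglycerate kinase, lies on chromosome X from 106187100 to 106203699 on the forward strand. Its level was 836, 872 and 647 CPM in the control and 272, 276 and 290 CPM with ICF. As with Tpi1, control replicate 3 was the lowest control sample and lay far above all ICF samples. The log2 fold change of -1.49 (SE 0.14, adjusted p = 0.00033 from edgeR) was the largest fall of the 8 genes. Pgk1 shared 67.5% of its stretches with other genes, mostly with the processed pseudogenes Pgk1-rs7 and Gm5537, which held 1181 and 1178 of them. These were counted at no more than 6 reads in any library, whereas Pgk1, with 32.5% of its stretches to itself, had 8400 to 27308 reads.

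Pgam1, phosphoglycerate mutase, lies on chromosome 19 from 41911923 to 41918660 on the forward strand. It stood at 219.9, 222 and 183 CPM in the control and 123, 126 and 119 CPM with ICF, with no overlap, and its log2 fold change was -0.76 (SE 0.09, adjusted p = 0.0014 from edgeR). Of its stretches, 40.6% were shared, all of them with Pgam1-ps2, which had between 0 and 12 reads per library.

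Of the enolases, Eno1 is the form of most tissues, Eno2 is known from neurons and Eno3 from muscle. Eno1 lies on chromosome 4 from 150236721 to 150248879, Eno2 on chromosome 6 from 124760053 to 124769673 on the reverse strand, and Eno3 on chromosome 11 from 70657202 to 70662513. Eno1 was at 2184, 2167 and 1712 CPM in the control and 1050, 1112 and 1031 CPM with ICF. The lowest control sample was again replicate 3 and exceeded every ICF sample, with a log2 fold change of -0.93 (SE 0.12, adjusted p = 0.0012 from edgeR). The shared part of Eno1, 65.4% of its stretches, lay mostly in Eno1b and Gm4735, which together reached 1.93 to 4.17 CPM.

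Eno2 was counted at 292, 329 and 195 reads without load and 214, 166 and 184 under ICF. The levels were 9.99, 10.5 and 6.78 CPM in the control and 6.16, 5.02 and 6.35 CPM with ICF. The groups did not overlap, but control replicate 3 lay close to the ICF samples. The log2 fold change was -0.64 (SE 0.23) and the adjusted p of 0.068 from edgeR did not pass. With the replicate number as a block, the log2 fold change was -0.63 and the adjusted p was 0.00041, with 15.3% of all tested genes called lower in that fit. In the same-numbered pairs the log2 ratio was -0.70, -1.06 and -0.09. Eno2 was also called with DESeq2 (adjusted p = 0.016) and with the looser filter of 1 count (adjusted p = 0.013, edgeR), both with all 6 samples. Without control replicate 3 the adjusted p was 0.013 and without replicate 3 of both groups it was 1.8e-05 (edgeR), while without ICF replicate 3 it was 0.065 and did not pass.

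Neuron markers moved in both directions. All 10 passed the filter, and their summed level was 355 to 388 CPM in the control and 267 to 318 CPM with ICF. Of these, Stmn2, Elavl3 and Nefl were called lower. None was called higher by edgeR without the block or by DESeq2, with 2 higher at an unadjusted p under 0.05. Map2 and Dcx, genes of neuronal microtubule proteins, had log2 fold changes of 0.35 and 1.14 with no overlap between the groups. Both were called higher with the replicate block (adjusted p = 0.0073 and 0.037, edgeR). The same fit called 4 neuron markers lower, Tubb3 besides Stmn2, Elavl3 and Nefl. Of all tested genes it called 14.6% higher and 15.3% lower. The mature neuron marker Rbfox3 was at 0.542 ± 0.16 CPM (SD, n = 3) without load and 0.688 ± 0.16 CPM (SD, n = 3) under ICF. The part of these cells in the Eno2 result was not tested.

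Eno3 was at 15.8, 15.6 and 16.8 CPM in the control and 13.7, 15.98 and 14.5 CPM with ICF, with overlapping groups. Its log2 fold change was -0.13 (SE 0.07, adjusted p = 0.44 from edgeR). Of 10 striated muscle markers, Myog, Myod1 and Ckm fell under the filter. The summed muscle markers were at 39.6 to 50.4 CPM in the control and 36.0 to 42.15 CPM with ICF. Tnnt2, a cardiac troponin gene, was higher with ICF and Ttn, which encodes titin, was lower.

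Per length, Eno1 made up nearly all of the summed enolase level. Its share of the summed enolase level, taken per unique stretch, was 99.6, 99.6 and 99.5% in the unloaded samples and 99.3, 99.2 and 99.2% in those under ICF. The Eno3 share was 0.327, 0.325 and 0.442% without load and 0.587, 0.646 and 0.632% under ICF, which did not overlap. Its p was 0.1 by the exact two-sided permutation test and 0.135 after adjustment. The share is taken of a sum made up mostly of Eno1, which fell. The level of Eno3 itself was not higher, with means of 16.1 CPM in the control and 14.7 CPM with ICF. The Eno2 share was 0.0978 to 0.12% in the control and 0.111 to 0.152% with ICF, and did overlap. Taken over all transcript bases instead, the mean Eno3 share was 1.03% in the control and 1.75% with ICF, since 65.4% of the Eno1 stretches are then counted as if reads from them could be placed.

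Pkm, pyruvate kinase, lies on chromosome 9 from 59656368 to 59679375 on the forward strand and had the highest counts of the 8 genes. Its level was 3721, 3618 and 3073 CPM in the control and 1933, 2062 and 2072 CPM with ICF. All ICF samples lay well below the lowest control sample, and the log2 fold change was -0.78 (SE 0.09, adjusted p = 0.0012 from edgeR). Pkm makes the M1 and M2 forms of the enzyme by alternative use of an exon, and counts per gene do not separate them. Its processed pseudogene Gm6560 on chromosome 5 held 337 of its stretches. This copy was itself counted at 231.9 ± 18.8 CPM (SD, n = 3) without load and 144 ± 16.2 CPM (SD, n = 3) under ICF, a log2 fold change of -0.69 (adjusted p = 0.0041, edgeR). Whether reads counted for Gm6560 came from Pkm was not tested.

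**Figure D3:**
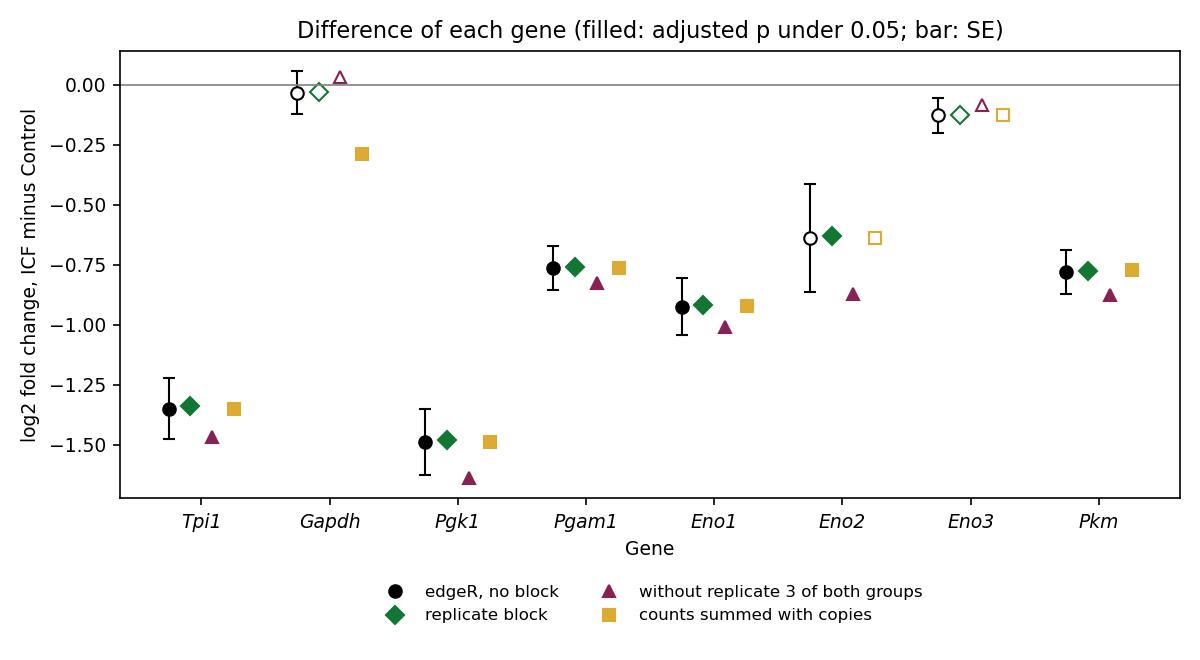
Log2 fold change (ICF minus control) of each gene in the edgeR test without block (black, bar for the SE), with the replicate block, without replicate 3 of both groups, and with counts summed over copies. Filled symbols mark an adjusted p under 0.05. Tpi1, Pgk1, Pgam1, Eno1 and Pkm are filled under all 4, Eno2 under 2, Gapdh only with its copies added, and Eno3 under none.

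The 5 genes called lower kept that call in each of the 6 fits that left out 1 sample. Their log2 fold changes then ranged from -1.61 to -1.41 for Pgk1, from -1.47 to -1.28 for Tpi1, from -1.03 to -0.87 for Eno1, from -0.86 to -0.73 for Pkm and from -0.85 to -0.72 for Pgam1. Without replicate 3 of both groups the values were -1.64, -1.47, -1.01, -0.88 and -0.83 in the same order. Within the same-numbered pairs, the fall of all 5 was smallest in pair 3, for example -1.08 for Tpi1 against -1.52 and -1.42 in pairs 1 and 2.

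Levels of different genes were compared per kilobase. Per unique stretch, the order in the control was Eno1, Pkm, Pgk1, Tpi1, Pgam1, Gapdh, Eno3 and Eno2, with 2994, 1830, 1380, 495, 206, 86.2, 10.8 and 3.34 CPM per kilobase. The order was the same with ICF, at 1577, 1067, 491, 194, 122, 84.2, 9.88 and 2.15 CPM per kilobase. The ranges of neighbours in this order did not overlap in either group. Per base of the whole transcript, Pkm led Eno1, and the ranges of Tpi1 and Pgk1 overlapped in the control. Gapdh stayed at the 6th place on both scales. The level per unique stretch divides all counts of a gene by the unique stretches of a single transcript, although reads from its other transcripts are counted too. For Gapdh 265 stretches were used. For Eno1 675 were used, while its coding transcripts together held 1606 unique stretches. Reads lost because they align almost as well elsewhere are not made up for. The order is therefore one of countable reads, and how far it follows the amounts of mRNA was not tested.

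A ratio of 2 genes within a library does not depend on its scaling. Over the 28 pairs, 21 ratios did not overlap between the groups and 7 did. The pairs reuse the same 8 genes and are not independent. No such share was computed for pairs of other genes, so whether 21 is unusual was not tested. Their exact two-sided permutation p was 0.1 at best, and after adjustment over 31 ratios and shares it was 0.135 at best, so that no ratio could pass. Relative to Gapdh, Pgk1 fell from a mean log2 ratio of 5.10 to 3.65 and Tpi1 from 5.01 to 3.70. The ratio of Pgam1 to Pkm was -4.06 in the control and -4.04 with ICF (difference 0.02, SE 0.05), the smallest difference of all pairs. Pgk1 fell more than Pkm, by -0.70 (SE 0.06), and Tpi1 more than Eno1, by -0.42 (SE 0.03), with no overlap. The groups did not overlap in any ratio of Tpi1 or Pgk1 to Pgam1, Eno1 or Pkm.

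**Figure D4:**
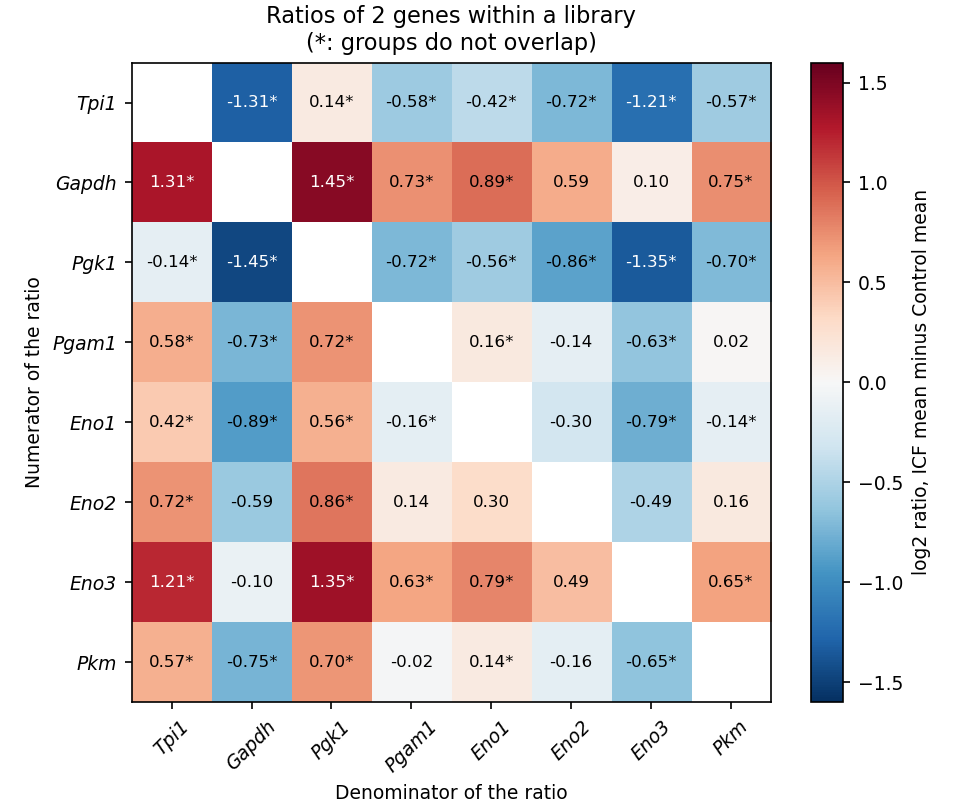
Change (ICF mean minus control mean) of the log2 ratio of 2 genes within a library, with the numerator in rows and the denominator in columns. An asterisk marks the 21 of 28 pairs whose groups do not overlap. The rows of Gapdh and Eno3 are mostly red (higher relative to the others) and those of Pgk1 and Tpi1 mostly blue.

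Promoter sequence was available from RefSeq (GRCm38.p6) for all 8 genes, as windows from 250 bases before to 50 after each transcription start, with 3 windows for Eno1 and 2 for Pkm. They were searched on both strands for ACGTG and GCGTG, the core letters of the sites bound by the hypoxia-inducible factors, which are known regulators of glycolysis genes. Read on the other strand these appear as CACGT and CACGC. At least 1 of the motifs was found for Gapdh, Pgk1, Pgam1, Eno1, Eno3 and Pkm, and neither for Tpi1 or Eno2. Over all 27025 genes in the table, 46.7% held at least 1 of them. Of the genes with a motif, Pgk1, Pgam1, Eno1 and Pkm were called lower, while Gapdh and Eno3 were not. Of those without, Tpi1 was called lower and Eno2 was not. Whether the hypoxia-inducible factors act on any of these genes here was not tested, and motifs this short and common cannot show it. The stretches below are shown to let these be compared, with the motifs in capitals, each wholly upstream of the start and printed 5′ to 3′ on the strand of the gene. They are chrX:106186928-106186995 (forward strand) for Pgk1, chr19:41911735-41911809 (forward strand) for Pgam1, chr6:125165791-125165849 (reverse strand) for Gapdh and chr11:70657024-70657072 (forward strand) for Eno3.
Pgk1: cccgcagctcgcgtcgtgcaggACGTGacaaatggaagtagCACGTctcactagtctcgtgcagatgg
Pgam1: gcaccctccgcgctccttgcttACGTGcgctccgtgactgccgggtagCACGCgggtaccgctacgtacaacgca
Gapdh: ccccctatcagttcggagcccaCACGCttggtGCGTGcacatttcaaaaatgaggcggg
Eno3: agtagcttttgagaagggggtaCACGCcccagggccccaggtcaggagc

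The genes that feed lower glycolysis also fell. Of 11 upper glycolysis genes, 9 passed the filter, 8 were downregulated and none upregulated (edgeR, with none higher by DESeq2 or at an unadjusted p under 0.05), with a median log2 fold change of -1.21. Aldoc and Aldoa, aldolases that make the triose phosphates, had log2 fold changes of -2.37 and -1.27. Pfkl, a phosphofructokinase subunit, had -1.31. Pfkm, another subunit, was not called (log2 fold change -0.19, adjusted p = 0.087 from edgeR), but passed with the replicate block (adjusted p = 0.011).

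Genes that handle pyruvate were split. Of 16 tested, 6 were downregulated and none upregulated (edgeR, with none higher by DESeq2 and 1 at an unadjusted p under 0.05), and the median was -0.12. Those with the largest fall were Slc16a3, a lactate exporter, at -2.28, Ldha, the lactate dehydrogenase subunit that favours lactate, at -1.69, and the pyruvate dehydrogenase kinases Pdk1 at -0.96 and Pdk4 at -0.95. Ldhb, the other lactate dehydrogenase subunit, was at 138 ± 11.3 CPM (SD, n = 3) without load and 142 ± 2.75 CPM (SD, n = 3) under ICF. With the replicate block 7 were called lower and 1 higher, Dlat, a subunit of the pyruvate dehydrogenase complex.

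Of 12 genes on branches that leave lower glycolysis, 11 passed the filter and 1 was called lower, Glo1, which detoxifies methylglyoxal (log2 fold change -0.25, adjusted p = 0.036 from edgeR). The median was -0.18. Phgdh and Psat1, of serine synthesis, had log2 fold changes of -0.26 and -0.18, and Pck2, which makes phosphoenolpyruvate in mitochondria, had -0.17. Their adjusted p-values were 0.11, 0.073 and 0.26 (edgeR). With the replicate block, 6 of the 11 were called lower, including all of these.

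Of 7 other isozymes of the same steps, 5 passed the filter and none was called by edgeR without the block or by DESeq2, with 1 lower at an unadjusted p under 0.05 and a median of -0.25. Their levels were low. Bpgm, which makes 2,3-bisphosphoglycerate in red blood cells, was highest with 26.0 ± 1.59 CPM (SD, n = 3) without load and 28.1 ± 1.69 CPM (SD, n = 3) under ICF. Eno4 and Eno1b, the latter named above among the Eno1 copies, had log2 fold changes of -0.25 and -0.55. Pgam2, the muscle mutase, had -0.73 (adjusted p = 0.32 from edgeR, 0.020 with the replicate block). The testis forms Gapdhs and Pgk2 fell under the filter.

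None of the 5 factors known to choose the exons of Pkm was called by edgeR without the block or by DESeq2, or had an unadjusted p under 0.05, and their median was 0.04. Ptbp1, which favours the M2 form, was at 763 ± 9.63 CPM (SD, n = 3) without load and 785 ± 27.8 CPM (SD, n = 3) under ICF, and Hnrnpa1 had a log2 fold change of -0.03. Those of Hnrnpa2b1 and Srsf3 were 0.18 and 0.11. Hnrnpa2b1 was called higher with the replicate block (adjusted p = 0.0039, edgeR).

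**Figure D5:**
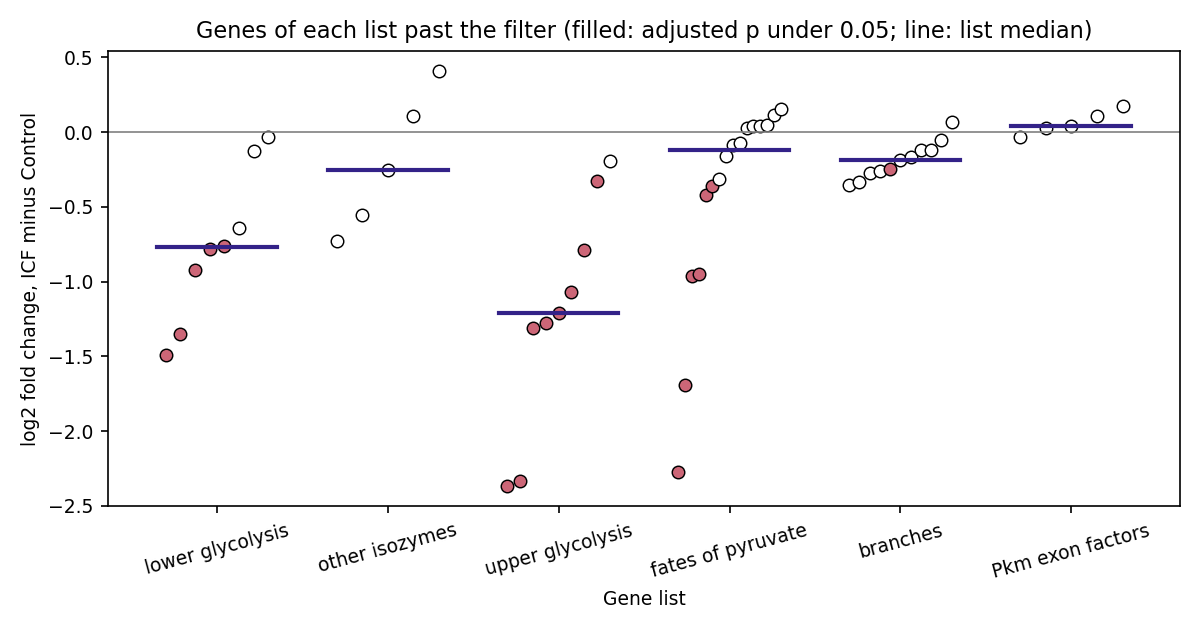
Log2 fold change (ICF minus control) of each gene past the filter in lower glycolysis and the 5 other lists, filled where the adjusted p was under 0.05 in the edgeR test without block, with a line at each list's median. The medians of lower and upper glycolysis, -0.77 and -1.21, lie below those of the other lists, which range from -0.25 to 0.04.

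The 8 genes outside this group whose pattern was most like theirs were sought among 9778 genes with a mean of at least 10 CPM, by Pearson's correlation over the 6 samples with the mean standardised log2 CPM of the 8. They were Zfp341, Me1, Ankzf1, Rpl22l1, Rdm1, Agfg2, 1700029P11Rik and Kank3, with r from 0.992 to 0.996. Me1 encodes malic enzyme, which makes pyruvate from malate, and fell from a mean of 127 to 73.3 CPM. These values describe 6 samples in 2 groups, which share their libraries, and 235 genes had r over 0.95. Of the 8 genes themselves, the 5 called lower had r from 0.972 to 0.983, Eno2 0.801, Eno3 0.73 and Gapdh 0.167. Each of these genes is part of the mean it is correlated with, and the 5 that fell together dominate that mean. These r were thus partly set in advance and cannot be compared with those of genes outside the group.

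Markers of the other cell types that the constructs could hold were also measured. Of 10 fibroblast and feeder cell markers, 8 passed the filter, Col1a1 and Col3a1 were called higher and none lower. Fbln1, the marker with the highest level, had a log2 fold change of -0.28 with overlapping groups. Thy1 and Pdgfrb had 0.07 and 0.06. With the replicate block, 3 were called higher and 1 lower, Fbln1. The summed fibroblast and feeder cell markers were at 85.5 to 125 CPM in the control and 107 to 139 with ICF, overlapping between groups. The summed endoderm markers were at 1798 to 2439 CPM in the control and 2074 to 2494 with ICF, overlapping between groups, with a median log2 fold change of 0.13 over the list. Among them Sox17 was called lower and none higher by edgeR without the block, 1 was higher by DESeq2 and 1 at an unadjusted p under 0.05, and with the block 2 were called lower and 3 higher, namely Gata6, Dab2 and Cubn. The summed pluripotency markers were at 3846 to 4656 and 3479 to 3928 CPM, with Tdgf1 called lower. DESeq2 called 2 of the 10 lower, and the block fit 4, namely Klf4, Dppa5a, Tdgf1 and Utf1, with none higher in either. In the block fit 15.3% of all tested genes were called lower and 14.6% higher. The part of these cells in the fall of the glycolysis genes was not tested.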

How the data were processed

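RNA sequencing measured 3 control and 3 ICF-treated samples as single reads of 75 bases from strand-specific libraries. The authors used Trimmomatic to filter reads, HISAT2 for alignment and HTSeq for counting, and deposited the raw count of each gene. The submitters' processing notes name both hg38 and GRCm38, and the mouse identifiers matched GENCODE M21 (GRCm38) for 50376 of 50686. The role of hg38, the HTSeq settings and the annotation are not given in the sources used here. For RNA isolation the labels and the methods name different kits. The 5 lines of each table that name no gene (38.1 to 40.3% of the total, of which reads with several alignments were 29.5 to 31.3%) were left out of library sizes and tests.

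The quasi-likelihood test of edgeR 4.0.16 was run in R 4.3.3 (TMM, filterByExpr, glmQLFit, glmQLFTest, Benjamini-Hochberg adjustment, threshold 0.05, no block). Standard errors were derived from the replicate variance of log2(CPM + 0.01), not from the fit. Ratios used log2(count + 0.5). The other settings were DESeq2 1.42.0, RLE and upper-quartile scaling, a filter of 1 count in any sample or 10 in every sample, the replicate block, each sample or replicate 3 of both groups left out, ICF replicate 3 divided by 4, and counts summed with copies sharing at least 100 stretches. The edgeR procedure was also run on simulated counts of the control against ICF comparison (16791 genes). It recovered 65% of genes changed by 0.5 on the log2 scale and 99% of those changed by 1.0, and 4.65% of its calls were false. The simulation gave all genes the same dispersion, 0.0107, and changed only genes with a mean count of at least 100. It modelled neither the spread particular to replicate 3 nor its steps of 4, so these rates need not hold for the real samples.

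Sequence shared between genes was found as exact 75-base matches on either strand between annotated GENCODE M21 transcripts. Copies outside that annotation, and inexact matches, were not analysed here. Per-length levels used the longest principal transcript.

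Same-numbered samples were paired by the donor numbers in the labels, and over 16729 genes their deviations from the mean of the group had correlations of 0.12, 0.17 and 0.30. Those of differently numbered samples ranged from -0.29 to 0.22, and control replicate 1 correlated more with ICF replicate 2 (0.22) than with its own number. The paper's methods do not mention donors. The 8 genes, the gene lists and the tests were chosen with earlier results of these data known. Named in the text are the 8 genes and, from each other list, up to 4 genes (those past the threshold with the largest change, otherwise those with the highest mean count), the 8 genes of most similar pattern, and genes on which a copy or ratio turns. A gene that this rule also names is not reported here. Pfkm, Ldhb, Dlat, the 2 testis isozymes and the marker genes were named after their values were seen. Protein sequences were not used here.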

Additional observations from a re-analysis of the deposited data

How the results depend on the processing

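Tpi1, Pgk1, Pgam1, Eno1 and Pkm stayed lower and past the threshold, and Eno3 stayed lower and short of it, under each of the 17 other settings, and between 5 and 7 of the 8 genes were called lower. Gapdh changed sign without control replicate 3 (0.052) and without ICF replicate 1 (0.0068), its range with 1 sample left out being -0.084 to 0.052, and it was 0.032 without replicate 3 of both groups. Summed with its copies it passed the threshold at -0.29, and did so too with the block (-0.29) and without replicate 3 of both groups (-0.30). Eno2 passed at -0.64 with DESeq2 (adjusted p = 0.016), at -0.64 without the stronger filter (adjusted p = 0.013), at -0.63 with the replicate block and at -0.87 without replicate 3 of both groups. With copies added as well, these last settings gave -0.63 and -0.87. With 1 sample left out, its log2 fold change ranged from -0.81 to -0.52. The replicate block changed the call of no other of the 8 genes.

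Genes called lower and higher, 733 and 580, became 1109 and 943 with DESeq2, 2561 and 2445 with the replicate block and 2627 and 2466 without replicate 3 of both groups. With 1 sample left out they ranged from 215 to 928 and from 85 to 724, lowest without control replicate 2. Among the other lists, the replicate block called 1 isozyme and 6 branch genes lower, and 1 pyruvate gene and 1 Pkm exon factor higher. Without replicate 3 of both groups, 3 isozymes and 6 branch genes were lower and 1 exon factor higher. Branch genes called lower were 3 with DESeq2 and 2 with the looser filter. With 1 sample left out, 0 to 1 isozyme, 3 to 6 pyruvate genes and 0 to 2 branch genes were called lower. Over all transcript bases the mean enolase shares were 98.7% (control) and 97.9% (ICF) for Eno1, 0.319 and 0.391% for Eno2 and 1.03 and 1.75% for Eno3. The causes of these shifts were not tested. Gapdh, Eno2 and Eno3 rest on counts of 166 to 753 reads a library, and in ICF replicate 3 the steps of 4 coarsen them further. No two-sided exact permutation test of 3 samples against 3 reaches 0.05.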
